A study of Homo sapiens with 6 samples.

Results

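Prostaglandins are made in successive enzymatic steps and read by receptors on the cell surface, and 10 genes of this pathway were examined: the cyclooxygenases PTGS1 and PTGS2, the synthases PTGES, PTGES2, PTGES3 and PTGIS, the receptors PTGER2 and PTGER4, the transporter SLCO2A1 and the degrading enzyme HPGD. They are 10 of the 58243 genes in the count table and were found by their symbols, each of which named a single row. The list was drawn up with the difference between si-SNHG17-1 and si-NC in these libraries already known, PTGS2 included, so the genes were chosen on that contrast. Their differences are therefore given as a description, with estimates and intervals but no p-value. Where a member is said to be called, that is part of the description and supports nothing.

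The libraries came from cells labelled Hep3B, a line derived from a human hepatocellular carcinoma and grown in serum. In the si-NC group (3 libraries) the cells received a control siRNA, and in the si-SNHG17-1 group (3 libraries) an siRNA directed at SNHG17, a long noncoding RNA and host gene of snoRNAs. The comparison asks which transcripts differ when SNHG17 is lowered. It rests on 1 siRNA in 1 line, and the sources used here do not give its sequence, dose or time. Nothing in the labels says that the replicates were separate cultures, so each p-value reflects only how these libraries spread, and that spread may be technical.

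As background, phospholipases free arachidonic acid from membranes, and cyclooxygenases turn it into the unstable intermediate prostaglandin H. PTGS1 encodes the constitutive cyclooxygenase COX-1. PTGS2 encodes COX-2, which is induced by cytokines, growth factors and stress and whose short-lived messenger RNA is controlled by AU-rich elements. Terminal synthases then make prostaglandin E (PTGES, PTGES2, PTGES3) or prostacyclin (PTGIS). Prostaglandin E acts in an autocrine or paracrine way on receptors such as EP2 (PTGER2) and EP4 (PTGER4), both coupled to cyclic AMP. SLCO2A1 carries prostaglandins into cells, where HPGD oxidises them to inactive forms. COX-2 and prostaglandin E are known for their part in inflammation and tumour growth, in liver tumours among others.

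Total counts were 30207055 to 42271168 per library. SNHG17 fell to 35.2% of its si-NC level (log2 fold change −1.51 ± 0.12 SE, adjusted p = 0.00101 by the quasi-likelihood test of edgeR), and an exact two-sided permutation test gave p = 0.1, the smallest that 3 against 3 libraries allow. Hepatocyte markers were nearly absent, although the label names a line from a hepatocellular carcinoma. All 8 of those examined, among them AFP and ALB, stayed under 1 CPM, and TTR and GPC3 were at 0 in every library. The identity of the cells was not tested, so the values below are those of cells labelled Hep3B. CPM here is the count relative to the library size after TMM scaling. The fibroblast markers summed to between 182 and 200 CPM in si-NC and between 244 and 257 CPM in si-SNHG17-1. Of these 6 markers 5 exceeded 1 CPM in at least 1 library, led by COL1A1 and COL3A1, while COL1A2 was at 0 throughout. PDGFRB went against the sum, with means of 8.11 CPM in si-NC and 6.65 CPM in si-SNHG17-1. The 6 endothelial markers summed to 2.77 to 4.41 CPM in si-NC and 6.32 to 8.35 CPM in si-SNHG17-1, with KDR at 0 in every library. CDH5 carried that difference, with means of 1.70 and 5.89 CPM, while PECAM1 had means of 1.37 and 0.592 CPM. The 6 macrophage and leukocyte markers summed to 37.5 to 44.0 CPM in si-NC and 49.0 to 67.2 CPM in si-SNHG17-1, mostly CD68. PTPRC and LYZ did not exceed 0.391 CPM. CD14 and ITGAM had lower means in si-SNHG17-1, for CD14 0.278 against 0.721 CPM. The part of these markers in the values below was not tested, and in bulk RNA a change in the makeup of the cells and a change in RNA per cell cannot be told apart.

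PTGS2 was the member with the largest difference. Its level was 36.0, 39.1 and 36.0 CPM in the si-NC libraries and 110.0, 110.2 and 117 CPM in the si-SNHG17-1 libraries. The groups lay far apart and the libraries within each group were close together. The raw counts behind these levels were 1356, 1634 and 1427 in si-NC, against 4202, 4643 and 3594 in si-SNHG17-1. The log2 fold change was 1.60 ± 0.08 SE with a 95% interval of 1.41 to 1.79, a 3.03-fold difference. With each library left out in turn the estimate stayed between 1.58 and 1.64, and the gene was called in all 6 of these fits. These fits reuse the libraries whose difference was known when the gene was chosen, so the repeated call is no independent support. Among the 10657 tested genes with a mean of 10 CPM or more, 12 had a larger positive log2 fold change.

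PTGS1 (ENSG00000095303.14), the constitutive counterpart at bases 122370530 to 122395703 of chromosome 9, had an estimate of the opposite sign and was not called. It stood at 9.16, 11.5 and 8.27 CPM in si-NC and at 4.87, 8.64 and 9.47 CPM in si-SNHG17-1. The groups overlapped, and the lowest value belonged to si-SNHG17-1 replicate 1. The log2 fold change was −0.33 ± 0.27 SE with an interval of −0.96 to 0.29, which leaves its direction undetermined. Scaled by exon length, PTGS2 made up 78.9% to 82.7% of the 2 cyclooxygenase transcripts in the si-NC libraries and 93.1% to 96.1% in the si-SNHG17-1 libraries. The ratio of PTGS2 to PTGS1 per kilobase was 4.32, 3.73 and 4.78 in si-NC, against 24.8, 14.0 and 13.6 in si-SNHG17-1. PTGS2 was thus already the more abundant cyclooxygenase transcript in control cells.

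PTGS2 (ENSG00000073756.11) occupies bases 186671791 to 186680427 of chromosome 1 (GRCh38, minus strand). No other annotated gene overlaps its exons. PACERR, a noncoding RNA known as an antisense neighbour of PTGS2, starts 195 bases upstream on the opposite strand, and its exons share 0 bases with those of PTGS2. It was named after its values were seen. PACERR had 19, 30 and 24 counts in the control libraries, compared with 79, 33 and 73 after si-SNHG17-1, so the groups did not overlap but the second si-SNHG17-1 library was close to si-NC. Its log2 fold change of 1.50 ± 0.47 SE was not called (edgeR adjusted p = 0.0886).

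The promoters of PTGS2 and PTGES are shown because these genes encode the inducible pair of the prostaglandin E pathway and their differences had opposite signs. They come from RefSeq on GRCh38.p14, where 8 of the 10 genes had an entry and PTGIS and SLCO2A1 had none. Each runs 5′ to 3′ from 250 bases before the start site to 50 bases after its beginning. The PTGS2 window is chr1:186680374-186680673 and the PTGES window is chr9:129752993-129753292, both on the minus strand. Capitals mark matches, on either strand, to the TATA box (TATAA), the core of the cyclic AMP response element (CGTCA), a C/EBP site (TTNNGNAA) and the GC box (GGGCGG).

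PTGS2: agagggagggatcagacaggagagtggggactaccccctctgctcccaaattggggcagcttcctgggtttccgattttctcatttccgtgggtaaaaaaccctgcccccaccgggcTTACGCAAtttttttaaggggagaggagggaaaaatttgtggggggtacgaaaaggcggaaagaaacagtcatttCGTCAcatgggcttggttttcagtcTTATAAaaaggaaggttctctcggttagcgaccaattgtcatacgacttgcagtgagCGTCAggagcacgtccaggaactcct

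PTGES: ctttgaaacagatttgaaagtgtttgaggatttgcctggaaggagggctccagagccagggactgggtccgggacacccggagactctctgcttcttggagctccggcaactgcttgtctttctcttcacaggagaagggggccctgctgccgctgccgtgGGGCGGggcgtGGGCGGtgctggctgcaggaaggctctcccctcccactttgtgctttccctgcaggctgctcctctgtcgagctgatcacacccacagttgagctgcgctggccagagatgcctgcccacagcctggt

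The PTGS2 window held a TATAA match on its own strand at −32 to −28, counted from the first transcribed base as 1, and the reverse strand match at −33 to −29 overlaps it. It held CGTCA at −58 to −54 and at 25 to 29, a C/EBP match at −133 to −126, and no GC box. The PTGES window held GC boxes at −89 to −84 and −78 to −73 and none of the other marked motifs. Of all 35116 promoter windows of this length in the table, 20.4% held TATAA, 24.6% CGTCA, 36.8% the C/EBP letters and 45.0% the GC box. Among the 8 genes with an entry, a TATAA match otherwise occurred only in 1 of the 2 PTGS1 windows, at −207 to −203 on the reverse strand. A CANNTG E-box occurred in 68.7% of all windows, a TGANTCA AP-1 site in 7.71% and the NF-kB consensus, written as GGGRNNYYCC, in 11.3%. In these letters R is A or G, Y is C or T and N is any base. The PTGS2 window matched the E-box at −55 to −50, overlapping the CGTCA match by 2 bases, and at −1 to 5. As written, neither of the other 2 patterns matched it. Its GGGACTACCC differs from the NF-kB pattern in a single base and so was not counted. All of these are comparisons of letters, not measured binding sites. The first 52 bases of PACERR lie inside the PTGS2 window.

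**Figure D1:**
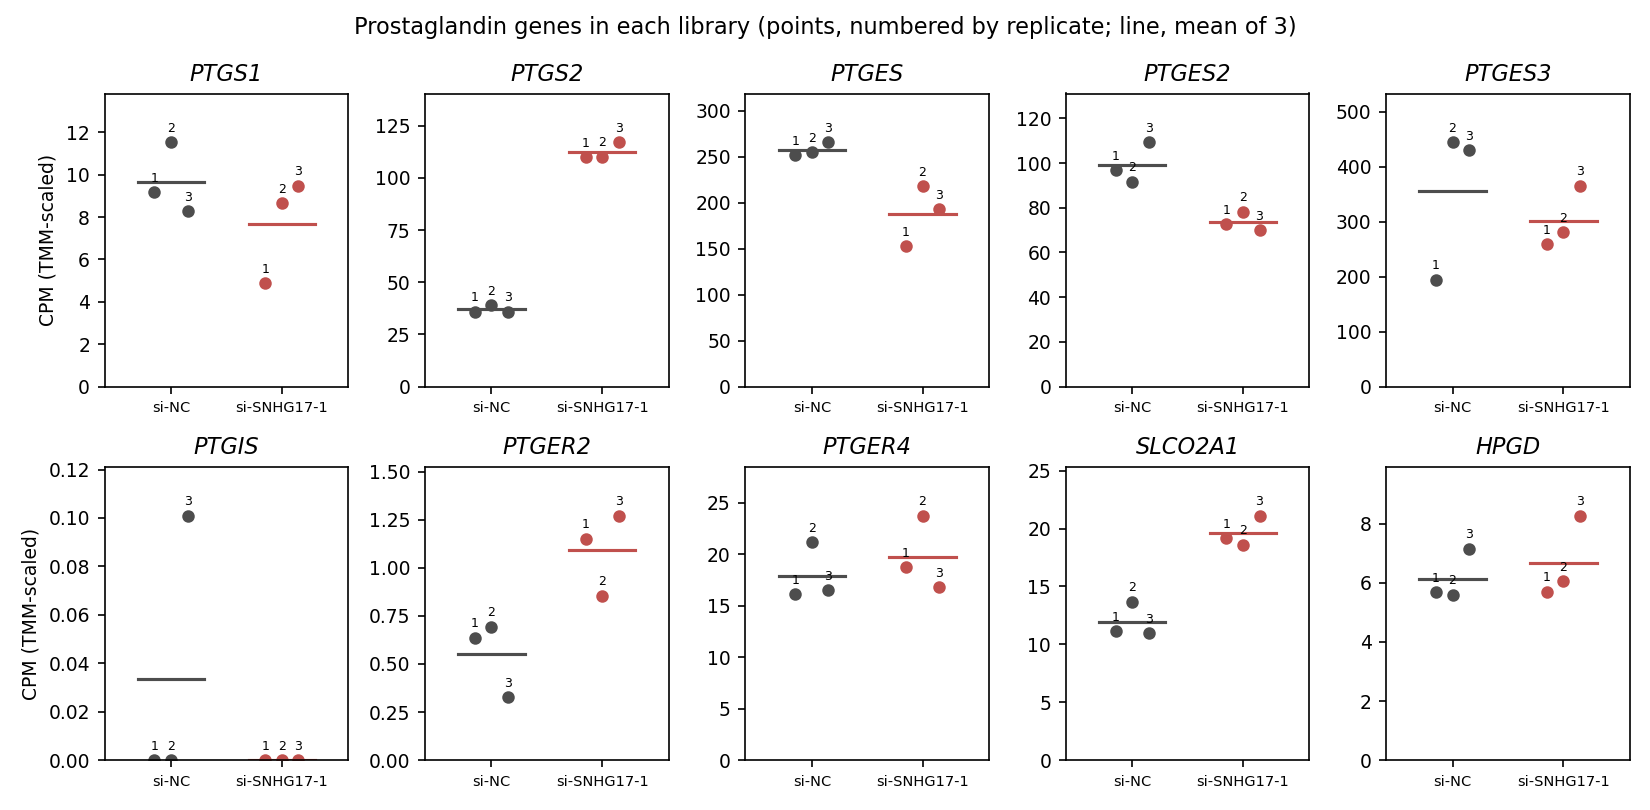
Level of each of the 10 genes in every library, in CPM after TMM scaling, with a separate linear axis from 0 for each gene. Points are libraries numbered by replicate and lines are means of 3. PTGS2 lies at 36.0 to 39.1 CPM in si-NC and at 110.0 to 117 CPM in si-SNHG17-1, whereas PTGES3 has 1 si-NC library at 194 CPM and the other 2 si-NC libraries at 430 CPM or more.

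The terminal synthases of prostaglandin E all had negative estimates, of which 1 of 3 was called. PTGES encodes the microsomal synthase that is usually induced together with COX-2. The gene (ENSG00000148344.10) spans bases 129738331 to 129753047 of chromosome 9. It stood at 251, 255 and 266 CPM in si-NC and at 153, 218 and 193 CPM in si-SNHG17-1. All 3 si-SNHG17-1 libraries lay below all si-NC libraries, with replicate 1 the lowest. The log2 fold change was −0.45 ± 0.13 SE (95% interval −0.75 to −0.16). PTGES was not called by edgeR in the fit over all genes, but it was called by DESeq2 and by limma-voom.

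PTGES2 encodes a membrane-associated prostaglandin E synthase, at bases 128120693 to 128128462 of chromosome 9 (ENSG00000148334.14). Its values were 96.9, 91.7 and 109 CPM in si-NC and 72.7, 78.2 and 70.1 CPM in si-SNHG17-1, again without overlap between the groups. The log2 fold change was −0.43 ± 0.09 SE (interval −0.65 to −0.21) and was called. With a library left out the call was kept only without si-NC replicate 2, while the estimate stayed between −0.48 and −0.36.

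PTGES3 encodes the cytosolic synthase, better known as an HSP90 co-chaperone, at bases 56663341 to 56688408 of chromosome 12 (ENSG00000110958.15). It stood at 194, 444 and 430 CPM in si-NC and at 259, 281 and 365 CPM in si-SNHG17-1. The first si-NC library lay below every other library and the other 2 lay above all of them, so the groups overlapped. The log2 fold change was −0.24 ± 0.30 SE (interval −0.93 to 0.45). Without si-NC replicate 1 the estimate was −0.54, and the gene was not called with or without it. A processed pseudogene of PTGES3, PTGES3P1, had at most 18 counts in a library.

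PTGIS, the prostacyclin synthase gene, was not detected beyond 4 counts in si-NC replicate 3, equal to 0.101 CPM. A count of 0, as in the other 5 libraries, allows up to 0.0712 to 0.0977 CPM at their depths, counting 3 reads as the limit and covering counting error only. It was left out of the test by the filter on low counts, so 9 of the 10 genes were tested.

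The receptor genes were expressed at different levels, and neither was called. PTGER4 stood at 16.1, 21.2 and 16.5 CPM in si-NC and at 18.8, 23.7 and 16.8 CPM in si-SNHG17-1, with overlapping groups. Its log2 fold change was 0.14 ± 0.18 SE (interval −0.28 to 0.56), and the sign turned without si-SNHG17-1 replicate 2. PTGER2 was scarce, with 24, 29 and 13 counts in si-NC, against 44, 36 and 39 in si-SNHG17-1, or 0.637, 0.695 and 0.328 CPM and 1.15, 0.855 and 1.27 CPM. The groups did not overlap, but the estimate of 0.97 ± 0.45 SE had an interval of −0.07 to 2.02, so at this depth the direction could not be determined.

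SLCO2A1, the prostaglandin uptake transporter, was the other called member with a positive difference. The gene (ENSG00000174640.12) spans bases 133932696 to 134052184 of chromosome 3. It stood at 11.1, 13.7 and 10.9 CPM in si-NC and at 19.2, 18.6 and 21.1 CPM in si-SNHG17-1, without overlap. The log2 fold change was 0.72 ± 0.14 SE (interval 0.39 to 1.05), a 1.65-fold difference. As for PTGES2, the call was kept only without si-NC replicate 2 among the fits with 1 library left out, and the estimates ranged from 0.66 to 0.83. HPGD, the enzyme that inactivates what SLCO2A1 brings in, stood at 5.68, 5.60 and 7.16 CPM in si-NC and at 5.70, 6.05 and 8.27 CPM in si-SNHG17-1. The groups overlapped, the log2 fold change was 0.12 ± 0.21 SE (interval −0.36 to 0.59), and the sign turned without si-SNHG17-1 replicate 3.

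In all, 3 of the 9 tested members were called, PTGS2 and SLCO2A1 higher and PTGES2 lower, where a call is an adjusted p under 0.05 over all 18679 tested genes. Over all tested genes 10.5% were called, 5.25% higher and 5.21% lower. In 5 of the 9 members the groups did not overlap, as in 33.7% of all tested genes. Since the genes were chosen with this contrast known, nothing is read from these shares or from the calls of members, here or with a library left out. The median log2 fold change of the 9 was 0.12, beside −0.00 for all tested genes. PTGS2 was the only member called in every fit with a library left out, and leaving out any library other than si-NC replicate 2 reduced the called members to 1.

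**Figure D2:**
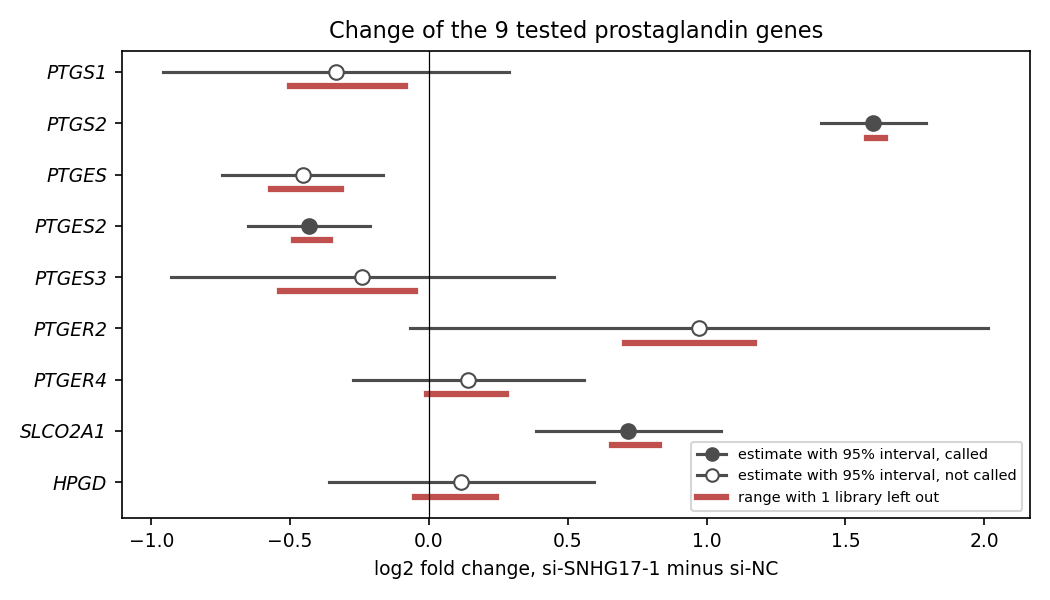
Log2 fold change of the 9 tested genes, si-SNHG17-1 minus si-NC, from the fit over all genes. Points are estimates with 95% intervals, filled where called, and the red bars span the estimates with 1 library left out. PTGS2 is set apart at 1.60, and the red bars of PTGER4 and HPGD cross 0.

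Levels were compared between genes as CPM per kilobase of merged exons. In si-NC the order was PTGES (136 ± 3.86, SD, n = 3), PTGES3 (105 ± 41.3), PTGES2 (32.7 ± 2.97), PTGS2 (7.03 ± 0.345), PTGER4 (4.53 ± 0.710), PTGS1 (1.67 ± 0.290), SLCO2A1 (1.21 ± 0.157), HPGD (1.11 ± 0.159) and PTGER2 (0.224 ± 0.0797). The 3 synthases of prostaglandin E thus stood above all the other members, PTGS2 came next, and PTGER4 stood between PTGS2 and PTGS1. The ranges of SLCO2A1 and HPGD overlapped, and those of all other neighbours in this order did not. In si-SNHG17-1, PTGS2 stood at 21.3 ± 0.759 and PTGES2 at 24.2 ± 1.37 CPM per kilobase, each over 3 libraries. Using the longest transcript as the length moved HPGD from rank 8 to rank 6, above PTGS1 and SLCO2A1, at 2.03 instead of 1.11 CPM per kilobase. For SLCO2A1 the annotation used for length begins at another base than the count table does, so its length-scaled level is approximate.

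**Figure D3:**
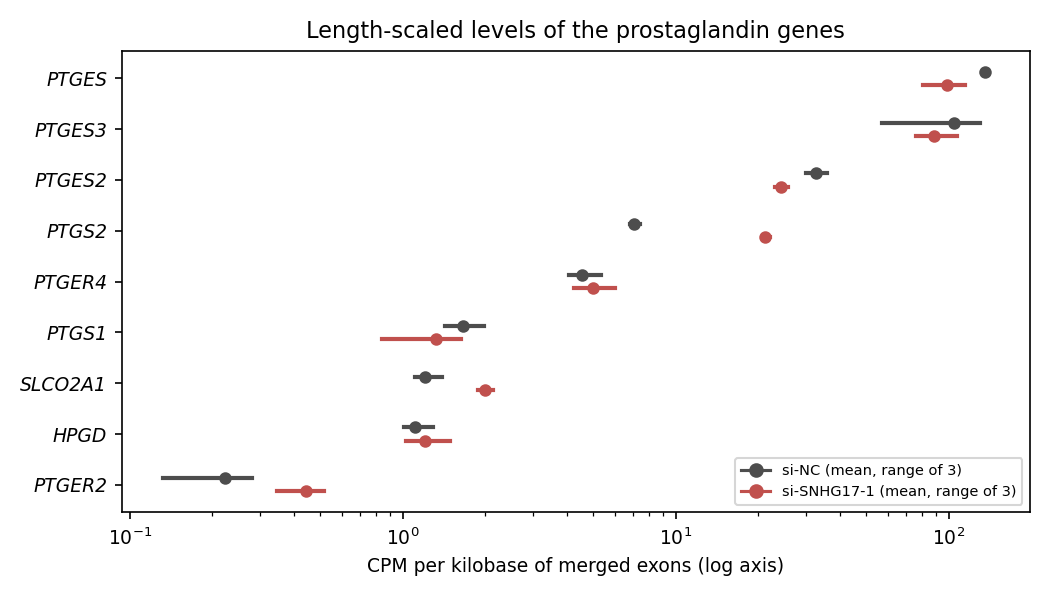
Length-scaled level of the 9 detected genes in CPM per kilobase of merged exons, on a log axis, with the mean and range of 3 libraries per group. PTGES is highest at 136 in si-NC, and PTGS2 moves from 7.03 to 21.3, close to PTGES2 at 24.2.

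The messenger of PTGS2 differed from the other members in its 3′ untranslated region. Its longest annotated 3′ UTR, of 2562 bases, held the AU-rich pentamer ATTTA 22 times, and 97.4% of the 13641 tested genes with a 3′ UTR held fewer. That share compares counts without regard to length, and the median 3′ UTR of those genes was 1311 bases long. Densities were not ranked over all genes. The 30 bases right after the stop codon, shown because they hold 3 overlapping copies (in capitals), read as follows.

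PTGS2 bases 1 to 30 after the stop codon: aagtctaatgatcatATTTATTTATTTAta

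SLCO2A1 held 12 pentamers in 6568 bases and PTGER4 held 9 in 1357 bases. SLCO2A1 is on the minus strand, and the annotation used here runs down to base 133928145, the count table only to base 133932696. Part of its annotated 3′ UTR may therefore lie outside the gene as counted, so its 12 pentamers are an upper figure. The density was 8.59 per kilobase in PTGS2, 6.63 in PTGER4, 5.28 in PTGES3 and 4.34 in PTGER2. PTGES held 1 pentamer and PTGES2 none. Over all tested genes with a 3′ UTR, 32.0% held 5 or more, and so did 6 of these 10. Of these 6, PTGS2 and SLCO2A1 were called higher, and PTGER4, PTGES3, HPGD and PTGER2 were not called. SLCO2A1 is counted here by its full annotated 3′ UTR, and whether it holds 5 within the counted bases was not tested. Among genes called in the whole table, 37.6% of the higher and 27.2% of the lower held 5 or more, and the median 3′ UTR was 1719 bases long in the higher and 1150.0 in the lower.

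**Figure D4:**
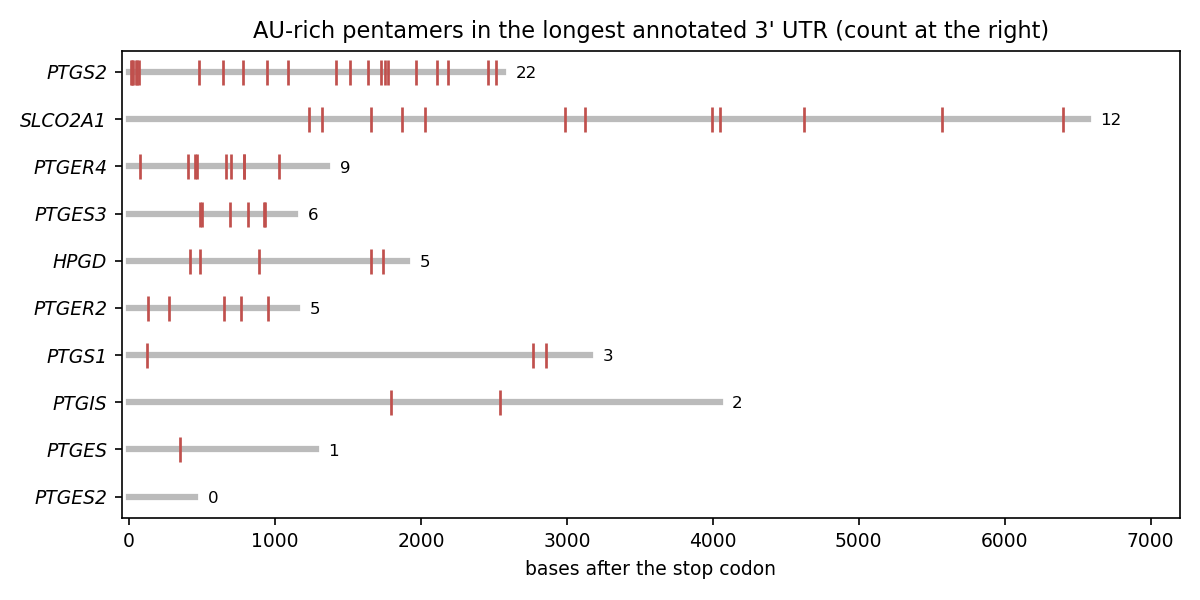
Position of the AU-rich pentamers (red ticks) in the longest annotated 3′ UTR of each gene (grey bars), in bases after the stop codon, with the count at the right. PTGS2 has 22, clustered in part directly after the stop codon, and PTGES2 has 0.

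The genes with a mean of at least 10 CPM whose levels ran most like PTGS2 over the 6 libraries were TPM4, AC008894.3 (annotated inside TPM4 on the opposite strand), GANAB, G3BP2 and SPOCD1. Likeness was measured as the root mean square difference in log2 CPM after centring each gene on its mean. It was 0.06 for TPM4, 0.10 for AC008894.3 and for GANAB, 0.13 for G3BP2 and 0.14 for SPOCD1, out of 10657 genes compared. Their log2 fold changes were 1.65, 1.57, 1.55, 1.43 and 1.46 in that order. PTGS2 varied little within each group, so this likeness mostly reflects the difference between the groups. Log2 fold changes near that of PTGS2 thus follow from the measure, and shared regulation was not tested.

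Around the members, 97 other genes of the pathway were listed by role, and 84 of them were tested. Of these 7 were higher and 7 lower (edgeR, adjusted p under 0.05 over all genes), beside 5.25% and 5.21% of all tested genes. The same shares are the background for each role below. The lists were drawn up with earlier results of these data known, so nothing is read from the counts of any role. Adjusted p-values of their genes are given as a description. Counted among the 7 lower is CYP4F11, which passed the filter on low counts only through si-NC, so nothing is read from that count. The median log2 fold change was −0.03. Of the 14 called genes 6 kept the call whichever library was left out, namely AKR1B1, AKR1C3, PTGFRN, NR4A3, JUN and PPARG. Without the filter on low counts PLA2G6, ADCY3, ADCY9 and AUH were not called, and AUH was also not called when libraries were scaled by total counts.

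Of 9 tested genes that supply arachidonate, PLA2G6, a calcium-independent phospholipase, was the only one called, at 9.79 ± 0.971 CPM in si-NC and 5.85 ± 0.771 in si-SNHG17-1 (SD, n = 3 each, log2 fold change −0.74 ± 0.17 SE, edgeR adjusted p = 0.0335). It lost the call whichever library was left out (adjusted p up to 0.104), and its exons overlap those of AL022322.2 on the other strand. The cytosolic phospholipase PLA2G4A, the enzyme usually coupled to COX-2, stood at 70.4 ± 11.1 and 55.8 ± 4.52 CPM and was not called (edgeR adjusted p = 0.154). ACSL4, which activates arachidonate for return to phospholipids, stood at 128 ± 28.2 and 189 ± 21.2 CPM without overlap between the groups (0.57 ± 0.16 SE) and was not called either (adjusted p = 0.0655).

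Of the 6 tested genes among the other terminal synthases, 2 were called, beside 10.5% of all tested genes. AKR1B1 stood at 677 ± 79.7 CPM in si-NC and fell to 432 ± 16.4 in si-SNHG17-1 (−0.65 ± 0.09 SE on the log2 scale, edgeR adjusted p = 0.006565). AKR1C3 stood at 93.9 ± 4.02 and fell to 50.9 ± 2.30 CPM (−0.88 ± 0.08 SE, adjusted p = 0.001908). AKR1C3 has near-identical paralogs, so its counts are uncertain. Of the others, CBR1, a carbonyl reductase, had a log2 fold change of −0.46 ± 0.27 SE and FAM213B, a prostaglandin F synthase gene, 0.13 ± 0.25 SE, with overlapping groups in both and no call (edgeR adjusted p = 0.334 and 0.791). GSTM2 was scarce, at 1.34 ± 0.110 CPM in si-NC and 0.477 ± 0.151 in si-SNHG17-1, without overlap. Its log2 fold change of −1.49 ± 0.40 SE was larger in size than those of the called genes but was not called (edgeR adjusted p = 0.0566). HPGDS, the haematopoietic prostaglandin D synthase gene, had 0 counts in every library, and PTGDS stayed near 0.

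Of 8 other receptor genes 4 were tested and 1 was higher. That gene, PTGFRN, encodes a membrane protein known to inhibit the prostaglandin F receptor and is not a receptor itself. It rose from 123 ± 7.09 to 181 ± 4.30 CPM (0.55 ± 0.07 SE, edgeR adjusted p = 0.005535). PTGER1, PTGER3, PTGIR and PTGDR were too scarce to test, and PTGDR was at 0 in every library. Among 4 genes of breakdown and export, ABCC4, which pumps prostaglandins out of cells, was lower (102 ± 6.82 against 77.1 ± 4.88 CPM, −0.40 ± 0.09 SE, adjusted p = 0.0314). That call was lost whichever library was left out (adjusted p up to 0.115).

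Of 13 genes of other arachidonate routes, 9 were tested, and the 1 counted as lower was CYP4F11, a fatty acid hydroxylase gene, with 40, 53 and 26 counts in si-NC, against 4, 5 and 0 in si-SNHG17-1. It passed the filter on low counts only through si-NC, so its call supports nothing. The call was also lost without that filter and whichever library was left out (edgeR adjusted p up to 0.105), and DESeq2 gave no adjusted p. In this list 8 of the 13 genes had less than 1 CPM in both groups.

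Among 20 genes of receptor coupling and the cyclic AMP response, 3 were higher and none was lower. Of all tested genes 5.25% were higher and 5.21% lower, and nothing is read from the count. NR4A3, an inducible nuclear receptor, rose from 13.3 ± 2.92 to 36.9 ± 2.66 CPM (1.48 ± 0.18 SE, edgeR adjusted p = 0.004324), while its relatives NR4A1 and NR4A2 had log2 fold changes of −0.02 and 0.22 and were not called. The adenylyl cyclase genes ADCY3 and ADCY9 were higher by 0.44 ± 0.10 SE and 0.34 ± 0.09 SE (edgeR adjusted p = 0.0386 and 0.0463). Each was called in 1 of the 6 fits that drop a library, ADCY3 without si-SNHG17-1 replicate 3 and ADCY9 without si-NC replicate 1, with adjusted p up to 0.141 and 0.133. Exons of ADCY3 overlap those of CENPO on the other strand.

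Among 21 transcription factors known to act on PTGS2, 3 were higher and 1 was lower, beside 5.25% and 5.21% of all tested genes. JUN, a subunit of AP-1, rose from 76.7 ± 12.5 to 148 ± 6.97 CPM (0.95 ± 0.12 SE, edgeR adjusted p = 0.005134). PPARG, a lipid-activated nuclear receptor, rose from 31.1 ± 1.91 to 60.6 ± 3.91 CPM (0.96 ± 0.10 SE, adjusted p = 0.00263). The immediate early gene EGR1 was higher at low level, at 7.41 ± 0.940 and 13.3 ± 1.45 CPM (0.85 ± 0.16 SE, adjusted p = 0.0193), but of the 6 fits that drop a library only 2 called it, which left out the second si-NC or the first si-SNHG17-1 library (adjusted p up to 0.0730). NFKB2 was lower (−0.37 ± 0.07 SE, adjusted p = 0.0242) and lost its call without si-NC replicate 3, si-SNHG17-1 replicate 1 or si-SNHG17-1 replicate 3 (up to 0.116). RELA and NFKB1, which encode the main NF-kB subunits, were not called, with log2 fold changes of −0.57 ± 0.30 SE and 0.04 ± 0.08 SE. ATF3, a stress-induced factor, had the largest positive estimate of the 84 tested genes (1.63 ± 0.46 SE, from 24.4 ± 16.5 and 75.7 ± 21.1 CPM), and NFATC2 had 1.24 ± 0.39 SE. In both the groups did not overlap, and neither was called (edgeR adjusted p = 0.0625 and 0.0854).

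Of 11 tested genes for proteins that bind AU-rich messages, 1 was called. AUH was lower (−0.73 ± 0.18 SE, edgeR adjusted p = 0.0432), and its call was lost whichever library was left out (up to 0.136). The stabilising protein gene ELAVL1 stood at 167 ± 2.99 and 169 ± 14.9 CPM, and ZFP36, which encodes a protein that promotes decay of such messages, at 21.1 ± 9.81 and 24.7 ± 8.31 CPM. Neither was called.

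**Figure D5:**
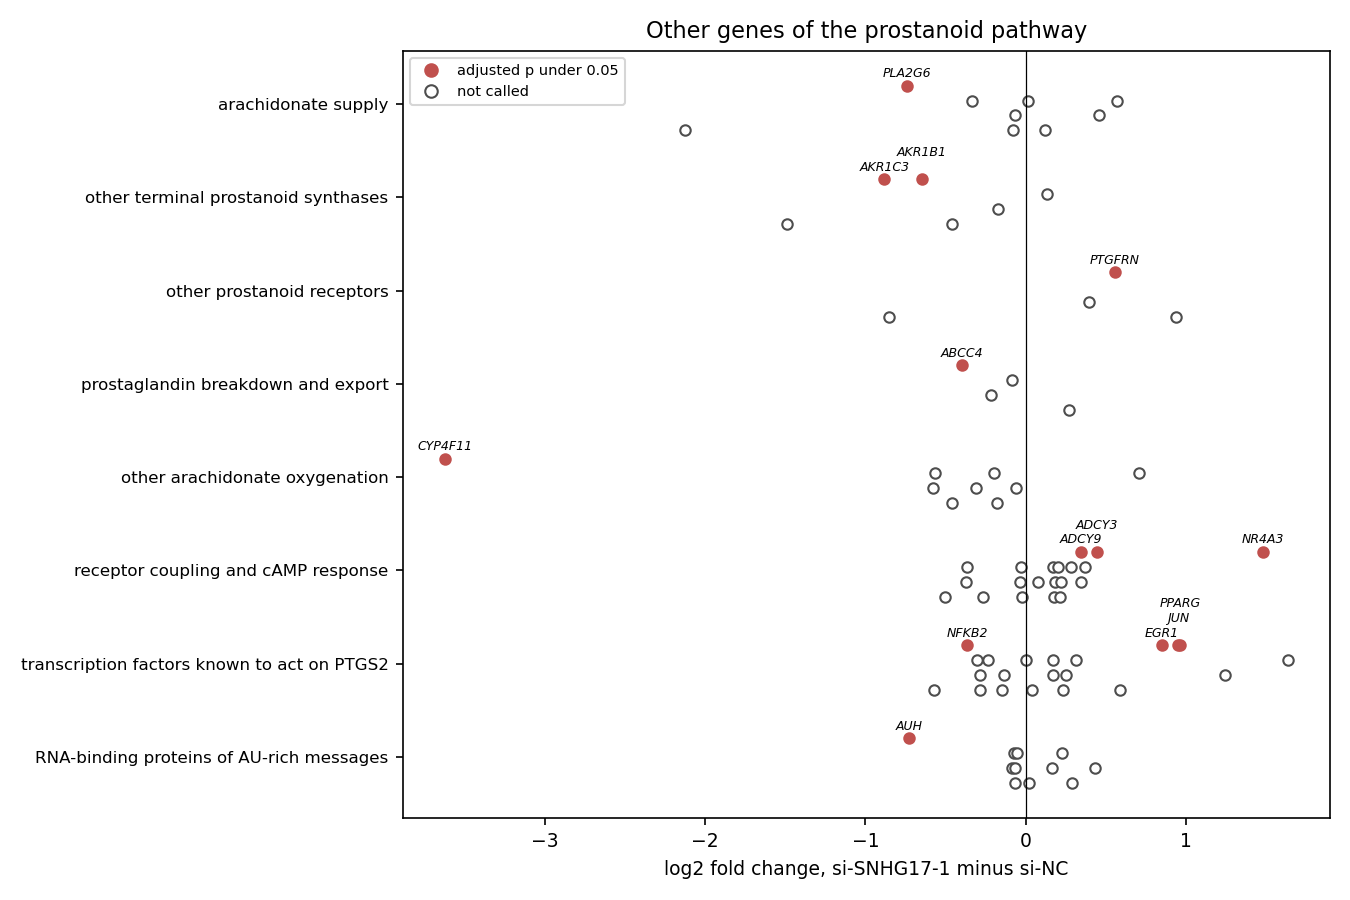
Log2 fold change, si-SNHG17-1 minus si-NC, of the 84 tested genes that surround the members in the pathway, by role. Each point is a gene, filled where its adjusted p is under 0.05, and the 14 called genes are named. NR4A3 has the largest positive value among them at 1.48.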

How the data were processed

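RNA from cells labelled Hep3B was sequenced in 6 libraries, 3 per group, and groups were taken from the library titles. The authors deposited raw counts per gene. HISAT2 and GRCh38 are named per the submitters' processing notes; the sources used here name no counting program, annotation release or strand setting, so a gene and one overlapping it on the other strand may share reads. Total counts were 30207055 to 42271168 per library.

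The whole table of 58243 genes was analysed with edgeR 4.0.16 in R 4.3.3: filterByExpr (minimum count 10, minimum total 15), TMM scaling, and an unblocked quasi-likelihood F test. Adjustment was by Benjamini-Hochberg over the 18679 genes tested, with a threshold of 0.05. Standard errors were derived from the log2 fold change and F. The procedure was tested on simulated data first. Exon lengths and 3′ UTRs came from GENCODE release 29, in which 8 of the 10 genes had the same version and position, and promoters from RefSeq. The members, gene lists and rules were chosen with earlier results of these data known. Genes named are all members, SNHG17, up to 3 called genes per direction of each list and the 5 most like PTGS2; PACERR and a few uncalled list genes were added after their values were seen. Alternatives were DESeq2 1.42.0, its size factors, limma-voom (limma 3.58.1), total counts, other filters, a replicate block and each library left out.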

Additional observations from a re-analysis of the deposited data

How the results depend on the processing

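The number of called members was 3 with the size factors of DESeq2, with total counts and with a filter of 1 CPM, 2 without a filter and 4 by DESeq2 and by limma-voom, and 1 to 3 with a library left out. With the replicate number as a block it was 1 (PTGS2). Same-numbered libraries had correlations of −0.02, −0.04 and −0.04 in their deviations from the group means. Those of differently numbered libraries lay between −0.01 and 0.04. Taken over all tested genes, scarce ones included, such values cannot decide whether the libraries were paired by replicate number. Among the other pathway genes the higher calls were 11 by DESeq2 instead of 7, and 4 to 7 with a library left out. The lower calls were 4 without a filter, 2 with the replicate block and 2 to 5 with a library left out, instead of 7. Over all genes, the calls of 980 higher and 974 lower became 670 and 627 without a filter, 1424 and 1395 by DESeq2, 273 and 259 with the block, 1168 and 781 with total counts, and 313 to 694 and 264 to 705 with a library left out. Fits with fewer libraries have less to test with. The causes of the other shifts were not tested. Among members, the sign turned for PTGER4 without si-SNHG17-1 replicate 2 (−0.0053, in a range of −0.0053 to 0.28 with a library left out) and for HPGD without si-SNHG17-1 replicate 3 (−0.050, in a range of −0.050 to 0.24), and for no member under the other scalings, filters or models. Depth limits PTGER2 and PTGIS, whose counts did not exceed 44 and 4 in a library.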

Other observations

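PTGES3 was not alone in standing apart in a single library. Of the 2561 tested genes with a mean of at least 100 CPM, 17 (0.664%) were in si-NC replicate 1 at under 50% of the lower of the other 2 si-NC libraries. In the other 5 libraries the same rule found 5 to 13 genes. PTGES3 in si-NC replicate 1 stood at 0.444 of the mean of the other 2.

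The 6-base word TCAATC, chosen with earlier results of these data known, was looked for in the longest annotated 3′ UTRs. It occurred in 19.4% of all tested genes with a 3′ UTR, in 30.5% of the genes called lower and in 15.6% of those called higher. Its 8-base extension TTCAATCA occurred in 2.84%, 8.30% and 1.93%. Because the word was chosen with results of these data known, these shares are a description and nothing is read from them. Among the 10 prostaglandin genes PTGS1 and SLCO2A1 held 1 copy of the 6-base word each, and none held the extension. PTGES2, which was lower, held neither. The siRNA sequence is not given in the sources used here, so how these words relate to it was not tested.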
